A study of Allium sativum with 18 samples.

Results

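The CYCLING DOF FACTOR (CDF) genes of garlic were examined as 4 of the 57561 gene ids in the deposited expression table, namely Asa3G01470.1, Asa3G01471.1, Asa3G01472.1 and Asa8G01471.1. They were chosen by the study's figure of photoperiod genes, which labels them CDF and draws from genes that differed between bulbs under enlarging growth and bulbs before enlargement in these same libraries. The members were thus selected on measured values of the stage contrast, and differences between stages are given below as a description with no test. Differences between varieties were not the criterion of that choice and were tested. They rest on the same 18 libraries and group means, however, so that their p values are not free of that choice. The files pair no id with a gene name or position, so that the CDF identity rests on the study's labels alone. The first 3 ids are numbered in a row and are called the tandem ids here, a name that describes their numbers only.

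CDF proteins belong to the DOF family of plant transcription factors. In Arabidopsis they repress the transcription of CONSTANS and of the florigen gene FT, and the photoreceptor FKF1 together with GIGANTEA marks them for degradation in the afternoon of long days, so that they act as a brake that day length releases. In potato a CDF protein influences the onset of tuber formation through the same module, and in onion FT-like genes control whether a bulb forms. CDF transcripts of Arabidopsis follow a daily rhythm.

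The libraries came from 3 garlic varieties, Yuanjiangyangsuan, Ershuizao and Chalingzipisuan, planted on one farm in October. Bulb parts were sampled in March, under enlarging growth, and in February, before enlargement, with 3 individuals of each variety at each stage, and the labels list no treatment or genetic alteration. The tissue is leaf per the labels, whereas their stage field and the study's methods speak of bulbs. Tissue markers could not be checked since ids carry no names. Stage and calendar month cannot be told apart, and the hour of collection is not given in the sources used here.

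Expression was given as FPKM, the number of sequenced fragments scaled by gene length and by the total of the library. Each library had 10340511 to 14117986 fragments on genes. On the second principal component of all tested genes, which held 28.2% of the variance, enlarging replicate 3 of Chalingzipisuan stood at -52.1, within the range of the 9 libraries before enlargement (-128 to -42.3) and apart from the other enlarging libraries of that variety (106 and 88.6). Its mean correlation with the other libraries of its group was 0.860, against 0.905 to 0.972 in the other 17 libraries. Most contrasts of enlarging Chalingzipisuan, its stage differences and the Pearson correlations named below are also given without this library. Group means, fragment ratios, Spearman's rho, ranks of likeness and the background of consecutive pairs are given only with it. So are the differences between varieties in the stage difference. The first component (41.5%) set Yuanjiangyangsuan apart from both other varieties.

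Asa8G01471.1 was by far the most abundant of the 4 genes per length, with a mean of 17.0 FPKM over the 18 libraries, above 73.3% of the 33681 genes tested. The tandem ids were scarce, with means of 1.67 FPKM for Asa3G01470.1, 0.875 FPKM for Asa3G01471.1 and 1.42 FPKM for Asa3G01472.1. All 4 passed the expression filter of an FPKM of 0.5 or more in at least 3 of 18 libraries. Asa8G01471.1 reached 0.5 FPKM in 18 libraries, Asa3G01472.1 in 13, Asa3G01470.1 in 8 and Asa3G01471.1 in 7. Asa3G01470.1 and Asa3G01471.1 passed mainly through the libraries in which they were high, so that the counts of differences below describe these genes and support nothing about the family. The gene lengths recovered from the FPKM steps were 915 bases for both Asa3G01470.1 and Asa3G01472.1, 750 bases for Asa3G01471.1 and 1224 bases for Asa8G01471.1. Whether the tandem ids share near-identical sequence, and how fragments matching several ids were assigned, was not examined here, and the split of fragments among them is uncertain to that extent.

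Asa8G01471.1 had 6.40, 8.17 and 5.50 FPKM in the 3 enlarging libraries of Yuanjiangyangsuan, 39.8, 32.2 and 35.6 FPKM in those of Ershuizao and 13.5, 12.7 and 8.48 FPKM in those of Chalingzipisuan. Before enlargement it had 12.5, 9.89 and 9.59 FPKM in Yuanjiangyangsuan, 16.2, 5.02 and 4.86 FPKM in Ershuizao and 30.9, 30.8 and 24.7 FPKM in Chalingzipisuan. Its level was thus highest in enlarging Ershuizao bulbs and in Chalingzipisuan bulbs before enlargement, and every library of these groups exceeded each of the other 12. Between these groups the ranges did not overlap, whereas the ranges of neighbouring groups in the order that followed, namely Chalingzipisuan enlarging, Yuanjiangyangsuan before enlargement, Ershuizao before enlargement and Yuanjiangyangsuan enlarging, overlapped. The Ershuizao library with 16.2 FPKM, replicate 1 before enlargement, lay more than 3-fold above the other replicates of its group.

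Asa3G01470.1 had 0.463, 0.0822 and 0.0750 FPKM in enlarging bulbs of Yuanjiangyangsuan, 3.47, 4.28 and 2.32 FPKM in those of Ershuizao and 0.352, 0.163 and 0.837 FPKM in those of Chalingzipisuan. Before enlargement the values were 0.219, 0 and 0.367 FPKM in Yuanjiangyangsuan, 0.602, 0 and 0.0663 FPKM in Ershuizao and 6.57, 5.19 and 4.92 FPKM in Chalingzipisuan. As for Asa8G01471.1, enlarging Ershuizao and Chalingzipisuan before enlargement were the high groups, here in the opposite order and without overlap. The other 4 groups overlapped with their neighbours in order of level and rested on 7 to 17 fragments each.

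Asa3G01471.1 was high in the same pair of groups. It had 0.188, 0 and 0.183 FPKM in enlarging bulbs of Yuanjiangyangsuan, 1.34, 1.22 and 0.809 FPKM in those of Ershuizao and 0, 0.694 and 0 FPKM in those of Chalingzipisuan. Before enlargement it had 0.356, 0 and 0.112 FPKM in Yuanjiangyangsuan, 0.0917, 0 and 0 FPKM in Ershuizao and 4.71, 2.24 and 3.80 FPKM in Chalingzipisuan. A value of 0 allows up to 3 fragments in a library, which is 0.243 to 0.322 FPKM in the 6 libraries at 0, and this limit covers counting error only.

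Asa3G01472.1 had another pattern, with its highest level in Yuanjiangyangsuan, where the other tandem ids were near the detection limit. Its values were 1.16, 2.55 and 1.58 FPKM in enlarging bulbs of Yuanjiangyangsuan, 1.02, 1.91 and 1.16 FPKM in those of Ershuizao and 0.176, 0.0813 and 0.609 FPKM in those of Chalingzipisuan. Before enlargement they were 3.65, 2.95 and 2.75 FPKM in Yuanjiangyangsuan, 0.150, 0 and 0.133 FPKM in Ershuizao and 1.90, 2.29 and 1.59 FPKM in Chalingzipisuan. Yuanjiangyangsuan before enlargement stood above all other groups without overlap. Chalingzipisuan before enlargement, Yuanjiangyangsuan enlarging and Ershuizao enlarging followed and overlapped with one another in that order, and the lowest pair, Chalingzipisuan enlarging and Ershuizao before enlargement, overlapped as well.

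**Figure D1:**
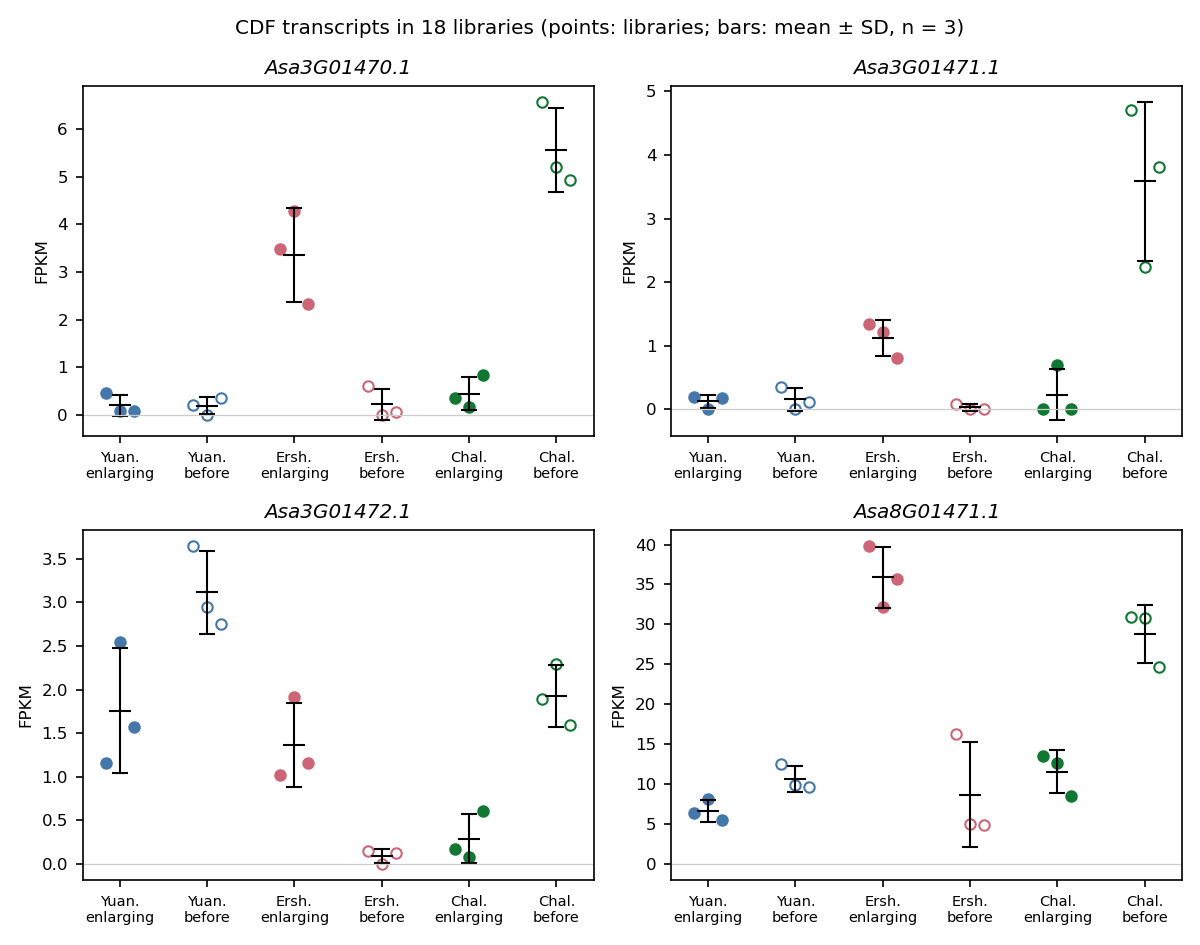
FPKM of the 4 CDF genes (vertical axes, 1 panel per gene, each with its own scale) in the 18 libraries, by variety and stage (Yuan., Yuanjiangyangsuan; Ersh., Ershuizao; Chal., Chalingzipisuan; filled points, enlarging; open points, before enlargement); points are libraries, and bars are the mean and SD of 3. Asa3G01470.1, Asa3G01471.1 and Asa8G01471.1 peak in enlarging Ershuizao and in Chalingzipisuan before enlargement, whereas Asa3G01472.1 is highest in Yuanjiangyangsuan before enlargement (3.11 FPKM).

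The varieties were compared within each stage with limma on log2(FPKM + 0.5), and a gene was called at an adjusted p under 0.05 (Benjamini-Hochberg over all 33681 genes tested) and a difference above 2-fold. Differences are on this log2 scale, which understates those of scarce genes. Of the 24 member contrasts 14 were called. This count joins contrasts that share groups and in which 0.757% to 23.7% of all genes tested were called. Standard errors were 0.36 for Asa3G01470.1, 0.34 for Asa3G01471.1, 0.29 for Asa3G01472.1 and 0.34 for Asa8G01471.1 in every contrast, with 95% intervals of ± 0.77, ± 0.73, ± 0.63 and ± 0.72. Each p rests on a spread between individuals that was pooled over the 6 groups of 3 libraries and moderated over genes. It is thus not the spread of the compared groups alone.

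Between Yuanjiangyangsuan and Ershuizao under enlarging growth, 3 of the 4 genes were called, all lower in Yuanjiangyangsuan, where 23.7% of all genes tested were called in either direction. Asa8G01471.1 averaged 6.69 ± 1.36 FPKM in Yuanjiangyangsuan and 35.9 ± 3.82 FPKM in Ershuizao (SD, n = 3 each), a log2 difference of -2.35 (limma adjusted p = 5.67e-05). Asa3G01470.1 averaged 0.207 ± 0.222 FPKM in Yuanjiangyangsuan and 3.36 ± 0.985 FPKM in Ershuizao (SD, n = 3 each), a log2 difference of -2.46 (limma adjusted p = 7.03e-05). Asa3G01471.1 differed by -1.38 (limma adjusted p = 0.00582), and with a pseudocount of 1 its difference of -0.91 fell short of 2-fold. None of these 3 genes overlapped between the varieties. Overlap between varieties is a description only, here and below, since its share over all genes was not computed. Asa3G01472.1, at 1.76 ± 0.713 FPKM in Yuanjiangyangsuan and 1.36 ± 0.481 FPKM in Ershuizao (SD, n = 3 each), overlapped and had a log2 difference of 0.26 (limma adjusted p = 0.547).

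Before enlargement the same pair of varieties differed in another gene. Of the 4 genes only Asa3G01472.1 was called, where 22.9% of all genes tested were. It averaged 3.11 ± 0.472 FPKM in Yuanjiangyangsuan and 0.0943 ± 0.0822 FPKM in Ershuizao (SD, n = 3 each), a log2 difference of 2.61 (limma adjusted p = 4.87e-06), with 119 fragments in the 3 Yuanjiangyangsuan libraries against 4 in those of Ershuizao. Per library total this was a ratio of 31.8 with a 95% counting interval of 12.1 to 118.6. Asa8G01471.1 differed by 0.49 (limma adjusted p = 0.299) with overlapping libraries. Without the high Ershuizao replicate 1 its difference was 1.03 (limma adjusted p = 0.00290) and was called. For Asa3G01470.1 (-0.00072, limma adjusted p = 1) and Asa3G01471.1 (0.27, limma adjusted p = 0.584) both varieties were near the detection limit, with 7 and 5 fragments over the 3 Yuanjiangyangsuan libraries against 9 and 1 over those of Ershuizao, and a difference was not detectable at this depth.

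Between Yuanjiangyangsuan and Chalingzipisuan under enlarging growth, Asa3G01472.1 alone was called of the 4 genes, against 22.4% of all genes tested. It averaged 1.76 ± 0.713 FPKM in Yuanjiangyangsuan and 0.289 ± 0.281 FPKM in Chalingzipisuan (SD, n = 3 each), a log2 difference of 1.53 (limma adjusted p = 0.000869), or 1.80 without enlarging replicate 3 of Chalingzipisuan. Asa8G01471.1 was lower in each of the 3 Yuanjiangyangsuan libraries than in each of the 3 Chalingzipisuan libraries, by -0.74 on the log2 scale, but did not pass the test (limma adjusted p = 0.121, and 0.0646 with a difference of -0.93 without that replicate). Asa3G01470.1 (-0.41, limma adjusted p = 0.445) and Asa3G01471.1 (-0.11, limma adjusted p = 0.847) overlapped between these varieties, and without that replicate their differences were -0.13 and -0.32, not called either.

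Before enlargement the picture between this pair was the reverse of that list, with Asa3G01470.1, Asa3G01471.1 and Asa8G01471.1 called as lower in Yuanjiangyangsuan and 22.0% of all genes tested called in either direction. Asa3G01470.1 averaged 0.195 ± 0.184 FPKM in Yuanjiangyangsuan and 5.56 ± 0.883 FPKM in Chalingzipisuan (SD, n = 3 each), a log2 difference of -3.15 (limma adjusted p = 5.77e-06). Asa3G01471.1 averaged 0.156 ± 0.182 FPKM in Yuanjiangyangsuan and 3.58 ± 1.25 FPKM in Chalingzipisuan (SD, n = 3 each), a log2 difference of -2.62 (limma adjusted p = 2.38e-05). The difference of Asa8G01471.1 was -1.39 (limma adjusted p = 0.00521). Asa3G01472.1 was higher in each Yuanjiangyangsuan library than in each Chalingzipisuan library, but its log2 difference of 0.58 did not pass the test (limma adjusted p = 0.166).

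Ershuizao and Chalingzipisuan resembled each other far more over all genes, with 0.757% of the genes tested called under enlarging growth and 0.941% before enlargement. These shares are 255 and 317 of 33681 genes. Without enlarging replicate 3 of Chalingzipisuan, 566 and 630 of 33569 genes were called, so that this background depends on that library. Under enlarging growth 2 of the 4 CDF genes were called, both higher in Ershuizao. Asa3G01470.1 averaged 3.36 ± 0.985 FPKM in Ershuizao and 0.451 ± 0.348 FPKM in Chalingzipisuan (SD, n = 3 each), a log2 difference of 2.05 (limma adjusted p = 0.0106), and Asa8G01471.1 differed by 1.62 (limma adjusted p = 0.0360). Asa3G01471.1 (1.27, limma adjusted p = 0.126) and Asa3G01472.1 (1.27, limma adjusted p = 0.0649) did not pass, although each Ershuizao library exceeded each Chalingzipisuan library in both genes. Without the deviating Chalingzipisuan replicate 3, Asa3G01472.1 was called (1.54, limma adjusted p = 0.0150), Asa3G01470.1 kept its call (2.33, limma adjusted p = 0.00499) and Asa8G01471.1 lost it (1.42, limma adjusted p = 0.0667).

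These calls between Ershuizao and Chalingzipisuan under enlarging growth depended on single libraries and on the model. That of Asa8G01471.1 was lost in 10 of 18 fits with a library left out, at log2 differences of 1.42 to 1.74 and limma adjusted p = 0.0517 to 0.136, of which 4 left out a library of another group. That of Asa3G01470.1 was lost without Ershuizao replicate 1 (2.01, limma adjusted p = 0.0515) or Chalingzipisuan replicate 2 (1.82, limma adjusted p = 0.0640), with a pseudocount of 0.1 (2.80, limma adjusted p = 0.125) and with limma voom on fragments (2.98, limma adjusted p = 0.108). Both calls were lost when only the 6 libraries compared were fitted (limma adjusted p = 0.260 for Asa3G01470.1 and 0.105 for Asa8G01471.1). Asa3G01471.1 was called without Chalingzipisuan replicate 2 (1.68, limma adjusted p = 0.0234), the only enlarging library of that variety in which it was above 0.

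Before enlargement all 4 genes were called between these varieties, against 0.941% of all genes tested, and all 4 were lower in Ershuizao. Their libraries did not overlap, which is a description only, since the share over all genes was not computed. Asa3G01470.1 averaged 0.223 ± 0.330 FPKM in Ershuizao and 5.56 ± 0.883 FPKM in Chalingzipisuan (SD, n = 3 each), a log2 difference of -3.15 (limma adjusted p = 0.000178). Asa3G01471.1 differed by -2.90 (limma adjusted p = 0.000255), with 1 fragment in the Ershuizao libraries against 126 in those of Chalingzipisuan, and Asa3G01472.1 by -2.03 (limma adjusted p = 0.00173), with 4 against 81. Asa8G01471.1 averaged 8.71 ± 6.53 FPKM in Ershuizao and 28.8 ± 3.58 FPKM in Chalingzipisuan (SD, n = 3 each), a log2 difference of -1.88 (limma adjusted p = 0.0102). The call of Asa8G01471.1 was lost without Ershuizao replicate 2 (-1.62, limma adjusted p = 0.0616) or 3 (-1.60, limma adjusted p = 0.0676) or Chalingzipisuan replicate 2 (-1.83, limma adjusted p = 0.05004), and also when only the 6 libraries compared were fitted (-1.88, limma adjusted p = 0.0995). The calls of the tandem ids held with each library left out and in that fit.

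**Figure D2:**
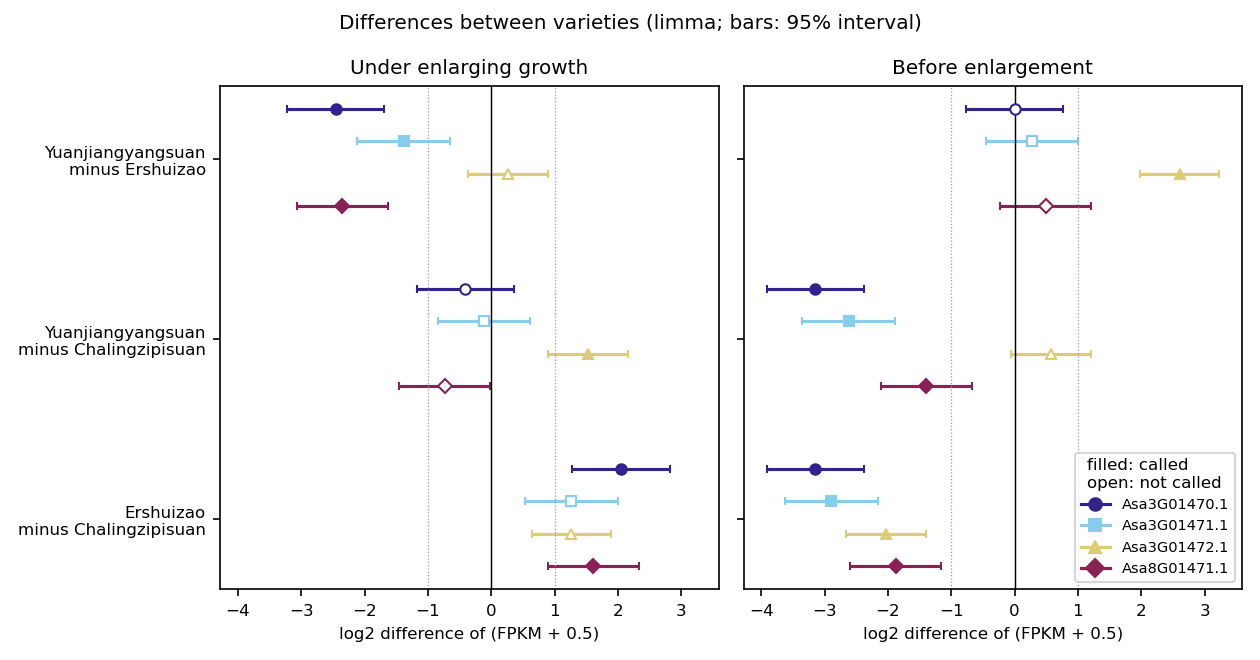
Differences between varieties in log2(FPKM + 0.5) for the 4 CDF genes (horizontal axes), under enlarging growth on the left and before enlargement on the right, with 95% intervals from limma; filled symbols are called, open symbols are not, and dotted lines mark 2-fold. All 4 genes lie below 0 between Ershuizao and Chalingzipisuan before enlargement (-3.15 to -1.88) and above 0 under enlarging growth (1.27 to 2.05).

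Read across the stages, the direction between Ershuizao and Chalingzipisuan was opposite in February and March for each of the 4 genes. Within Ershuizao all 4 were higher under enlarging growth than before enlargement, by log2 differences of 2.47 for Asa3G01470.1, 1.60 for Asa3G01471.1, 1.63 for Asa3G01472.1 and 2.20 for Asa8G01471.1. Within Chalingzipisuan all 4 were lower under enlarging growth, by -2.73, -2.56, -1.67 and -1.30 for the same genes in this order. The libraries of both stages did not overlap in any of these 8 cases. Within Yuanjiangyangsuan the differences were 0.02, -0.05, -0.72 and -0.64, none above 2-fold, and the stages overlapped for Asa3G01470.1 and Asa3G01471.1.

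Groups without overlap and a difference above 2-fold were thus found for 4 of 4 genes in Ershuizao, 4 of 4 in Chalingzipisuan and 0 of 4 in Yuanjiangyangsuan, where 12%, 10.0% and 26.5% of all expressed genes of these varieties met the same condition. Nothing can be read from these counts about the family, since this contrast chose the members. Without the deviating replicate 3 of enlarging Chalingzipisuan the differences in that variety were -3.00 for Asa3G01470.1, -2.35 for Asa3G01471.1, -1.94 for Asa3G01472.1 and -1.10 for Asa8G01471.1. This library had the lowest Asa8G01471.1 value of its group, 8.48 FPKM, against 24.7 FPKM or more before enlargement. It had the highest values of its group for Asa3G01470.1 (0.837 FPKM) and Asa3G01472.1 (0.609 FPKM), both below each library of the variety before enlargement, where the lowest values were 4.92 and 1.59 FPKM.

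In fragments, which need no pseudocount, the stage ratios of the tandem ids were larger. Asa3G01470.1 had 116 fragments in enlarging Ershuizao and 9 before enlargement, a ratio per library total of 15.0 (95% counting interval 7.61 to 33.5), and 17 and 236 fragments in enlarging Chalingzipisuan and before enlargement, a ratio of 0.0828 (0.0474 to 0.135). Asa3G01471.1 had 32 fragments in enlarging Ershuizao and 1 before enlargement, a ratio of 37.1 with a counting interval of 6.20 to 1512. Asa3G01472.1 had 47 and 4 fragments there, a ratio of 13.6 (4.99 to 52.1). For Asa8G01471.1 the ratio was 4.16 (3.75 to 4.62) in Ershuizao, 0.398 (0.361 to 0.438) in Chalingzipisuan and 0.618 (0.538 to 0.708) in Yuanjiangyangsuan. These intervals cover counting error and not the spread between individuals.

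**Figure D3:**
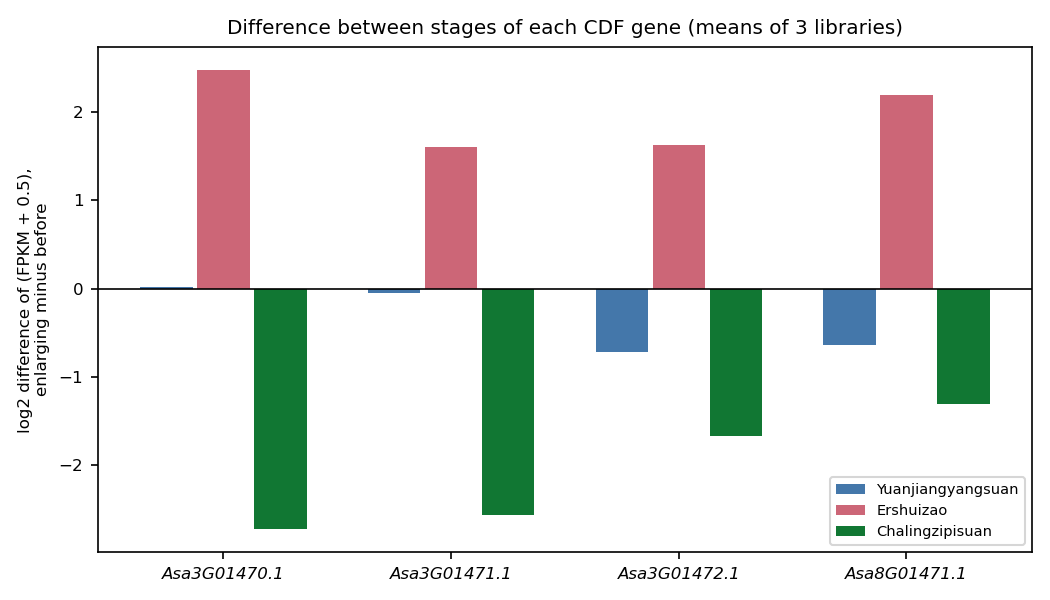
Difference in log2(FPKM + 0.5) between libraries under enlarging growth and before enlargement (vertical axis, bars from 0, difference of means of 3 libraries) for the 4 CDF genes in Yuanjiangyangsuan, Ershuizao and Chalingzipisuan. All 4 bars are positive in Ershuizao and negative in Chalingzipisuan, and the bar of Asa3G01470.1 in Yuanjiangyangsuan (0.02) is too short to see.

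The 3 tandem ids were then set against Asa8G01471.1 within each library, so that library scaling cancels apart from the pseudocount. The summed tandem FPKM averaged 2.09 ± 0.467 in enlarging bulbs of Yuanjiangyangsuan, 5.85 ± 1.56 in those of Ershuizao and 0.971 ± 0.460 in those of Chalingzipisuan (SD, n = 3 each). Before enlargement it averaged 3.47 ± 0.670 in Yuanjiangyangsuan, 0.348 ± 0.441 in Ershuizao and 11.1 ± 1.85 in Chalingzipisuan (SD, n = 3 each). Asa8G01471.1 exceeded the sum of the tandem ids in each of the 18 libraries.

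The log2 ratio of the sum to Asa8G01471.1 was nearly the same at both stages of Yuanjiangyangsuan, at -1.47 ± 0.109 under enlarging growth and -1.50 ± 0.0821 before enlargement. In Ershuizao it was -2.54 ± 0.448 under enlarging growth and -3.35 ± 0.365 before enlargement, and in Chalingzipisuan it was -3.06 ± 0.790 under enlarging growth and -1.34 ± 0.236 before enlargement (SD, n = 3 each). In replicate 2 of Ershuizao before enlargement all 3 tandem ids were at 0, so that the ratio of that library, -3.46, was set by the pseudocount. The pseudocount of 0.5 also weighed on replicates 1 and 3 of that group, with sums of 0.844 and 0.199 FPKM. Their ratios were -3.64 and -2.94, so that the order of these 3 ratios does not follow that of the sums. It weighed likewise on enlarging Chalingzipisuan, where the lowest sum was 0.528 FPKM. The ratios of these groups are uncertain to that extent.

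Over both stages the log2 ratio was 1.46 higher in Yuanjiangyangsuan than in Ershuizao (exact two-sided permutation test within stages, p = 0.005, the smallest that 400 permutations can give, adjusted p = 0.015 over 3 pairs of varieties), and each Yuanjiangyangsuan library exceeded each Ershuizao library of its stage. Within the stages this difference was 1.07 under enlarging growth and 1.85 before enlargement. Between Yuanjiangyangsuan and Chalingzipisuan the ratio differed by 0.72 (exact permutation p = 0.09, adjusted p = 0.135), made up of 1.59 under enlarging growth and -0.15 before enlargement. Between Ershuizao and Chalingzipisuan it differed by -0.75 (exact permutation p = 0.15, adjusted p = 0.15), made up of 0.51 and -2.0 at the same stages. A mean over both stages thus joins unlike differences in both pairs with Chalingzipisuan. Without the deviating Chalingzipisuan replicate the difference between Yuanjiangyangsuan and Chalingzipisuan was 0.93 (exact permutation, adjusted p = 0.128), and that between Ershuizao and Chalingzipisuan was -0.53 (exact permutation, adjusted p = 0.375).

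The tandem ids also contributed unequally to their sum. Asa3G01472.1 made up 64.0% to 96.9% of the summed FPKM in enlarging libraries of Yuanjiangyangsuan and 85.2% to 100% before enlargement. It made up 17.4% to 27.0% in enlarging libraries of Ershuizao and 14.4% to 23.6% in libraries of Chalingzipisuan before enlargement, which are the groups with a summed level above 4 FPKM in each library. Asa3G01470.1 was the leading id there, at 54.1% to 59.5% in enlarging Ershuizao and 47.7% to 53.4% in Chalingzipisuan before enlargement. In enlarging Chalingzipisuan and in Ershuizao before enlargement the sums rested on few fragments, and the shares ranged from 8.67% to 66.7% for Asa3G01472.1 over the 5 libraries with a sum above 0.

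**Figure D4:**
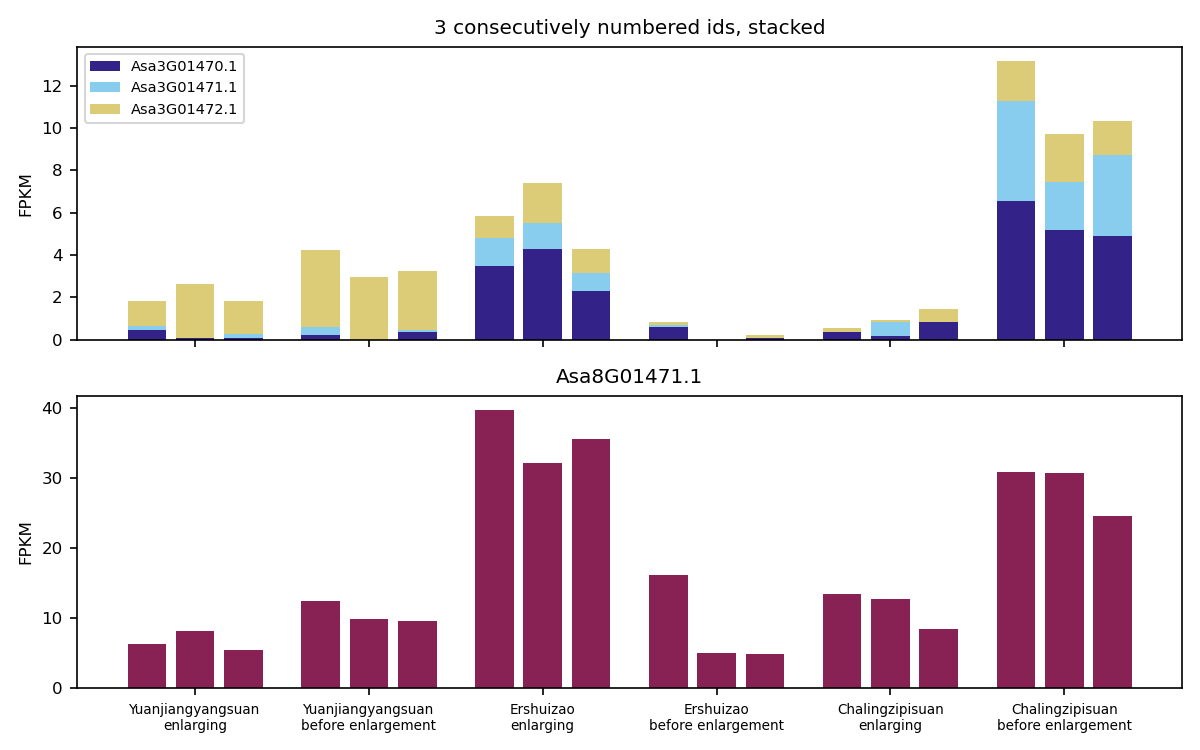
FPKM of the 3 tandem ids, stacked (upper panel), and of Asa8G01471.1 (lower panel, another scale) in each of the 18 libraries, 3 bars per group for replicates 1 to 3. Asa3G01472.1 fills most of the bars of Yuanjiangyangsuan (64.0% or more), and Asa3G01470.1 is the largest segment in enlarging Ershuizao and in Chalingzipisuan before enlargement.

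Over the 18 libraries, Asa3G01470.1, Asa3G01471.1 and Asa8G01471.1 varied alike, and Asa3G01472.1 did not. Within Ershuizao and Chalingzipisuan, however, the stage differences of Asa3G01472.1 (1.63 and -1.67) had the same signs as those of the other members. In Yuanjiangyangsuan it had 1.16 to 3.65 FPKM, where the other tandem ids were near the detection limit. Pearson's r of log2(FPKM + 0.5) was 0.895 between Asa3G01470.1 and Asa3G01471.1 (Spearman's rho 0.789), 0.876 between Asa3G01470.1 and Asa8G01471.1 (rho 0.780) and 0.787 between Asa3G01471.1 and Asa8G01471.1 (rho 0.729). Among 33680 other genes, Asa3G01470.1 was the gene most alike to Asa3G01471.1 and ranked second for Asa8G01471.1. Asa3G01472.1 had r of 0.279 with Asa3G01470.1, 0.308 with Asa3G01471.1 and 0.274 with Asa8G01471.1, and in likeness to it the other members held ranks 8619, 7807 and 8792 among the 33680 genes. These values describe 18 libraries in 6 groups that share variety, month and library scaling, and no p is given. Without the deviating Chalingzipisuan replicate the r values of these 6 pairs were 0.915, 0.887, 0.780, 0.280, 0.289 and 0.258 in the same order. The likeness among Asa3G01470.1, Asa3G01471.1 and Asa8G01471.1 rested on the 6 libraries of enlarging Ershuizao and of Chalingzipisuan before enlargement, since without these, a setting chosen after seeing the data, r over the other 12 was 0.02, 0.44 and 0.32 for their 3 pairs.

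As a background, 22293 pairs of tested genes with consecutive numbers had a median r of 0.141 (quartiles -0.211 and 0.504). Of these pairs 3.97% reached the r of Asa3G01470.1 with Asa3G01471.1, and 38.2% reached that of Asa3G01471.1 with Asa3G01472.1. The tandem ids were chosen on the stage contrast of these same libraries, whereas the background pairs were not. These shares are thus a description and support nothing about the family. The tandem ids are neighbours by number only, since positions were not used here.

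Outside the family, the gene most alike to Asa8G01471.1 (r = 0.946) and to Asa3G01470.1 (r = 0.900) was Asa7G01587.1, which the study's figure labels CCA1, after a MYB-related transcription factor of the circadian clock whose transcript peaks in the morning in Arabidopsis. Its FPKM averaged 30.6 ± 5.50 in enlarging bulbs of Yuanjiangyangsuan, 153.5 ± 12.1 in those of Ershuizao and 66.2 ± 7.53 in those of Chalingzipisuan (SD, n = 3 each). Before enlargement it averaged 41.8 ± 3.44 in Yuanjiangyangsuan, 29.9 ± 14.1 in Ershuizao and 134.6 ± 25.7 in Chalingzipisuan (SD, n = 3 each). The 6 libraries of enlarging Ershuizao and of Chalingzipisuan before enlargement were the highest of the 18 in both Asa7G01587.1 and Asa8G01471.1. Over the other 12 libraries r between these genes was 0.792, and that between Asa7G01587.1 and Asa3G01470.1 was 0.615. Without the deviating Chalingzipisuan replicate they were 0.963 and 0.901. The Ershuizao library before enlargement with the highest Asa8G01471.1 value, replicate 1, was also that with the highest Asa7G01587.1 value of its group, 46.1 FPKM. Both CDF and CCA1 transcripts are rhythmic in Arabidopsis, and the part of the hour of collection in these differences was not tested.

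**Figure D5:**
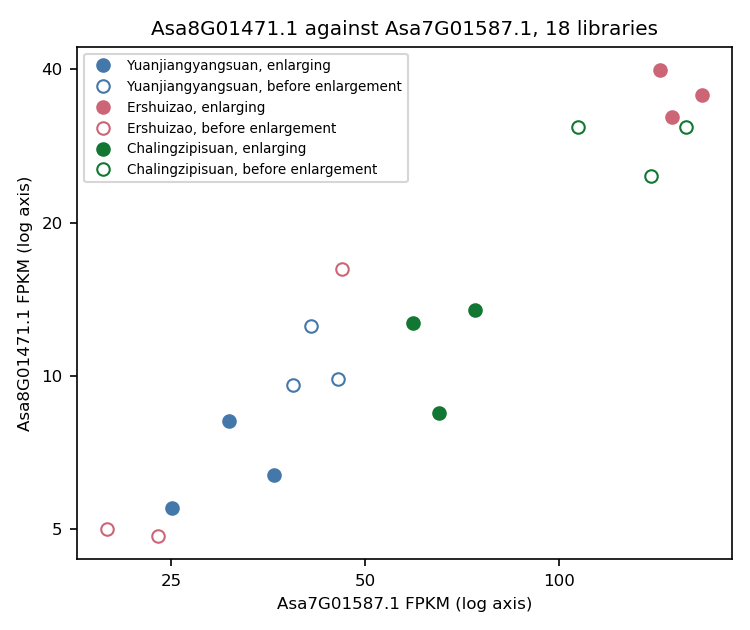
FPKM of Asa8G01471.1 (vertical, log axis) against that of Asa7G01587.1, labelled CCA1 in the study's figure (horizontal, log axis), in the 18 libraries, coloured by variety and filled under enlarging growth. The 6 libraries at the upper right are enlarging Ershuizao and Chalingzipisuan before enlargement, and r over all 18 is 0.946 on log2(FPKM + 0.5).

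Members left out, the next gene in likeness to Asa8G01471.1 was Asa1G04558.1 (r = 0.856) and the next to Asa3G01470.1 was Asa2G02016.1 (r = 0.869). Asa2G02016.1 averaged 18.3 ± 1.28 FPKM in enlarging Ershuizao and 21.5 ± 3.64 FPKM in Chalingzipisuan before enlargement, against 3.11 to 10.8 FPKM in the means of the other groups. Outside the family, Asa3G01471.1 was most alike to Asa7G01529.1 (r = 0.857) and Asa2G01970.1 (r = 0.841). Asa2G01970.1 was scarce, at 0 in enlarging Yuanjiangyangsuan and with a highest group mean of 1.44 FPKM. So was Asa1G04558.1, with a highest group mean of 1.18 FPKM, and the pseudocount weighed on the r of both. Asa3G01472.1 was most alike to Asa1G02091.1 (r = 0.823) and Asa2G06720.1 (r = 0.822), both with their highest means in Yuanjiangyangsuan before enlargement, at 13.3 ± 5.15 and 69.3 ± 3.08 FPKM (SD, n = 3). Without the deviating Chalingzipisuan replicate r of these 6 pairs lay between 0.819 and 0.874. Over the 12 libraries outside enlarging Ershuizao and Chalingzipisuan before enlargement, r was 0.428, 0.665, 0.292, 0.343, 0.873 and 0.956 in the order named. The files do not pair these ids with names.

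The same variety contrasts were read for 8 genes that the study names around photoperiod, florigen and gibberellin. They comprise Asa2G00681.1 (like ELF4, a component of the evening complex of the clock), Asa2G04763.1 and Asa6G01159.1 (like TGA4, a bZIP factor), Asa6G06199.1 (like FT, the florigen), Asa6G01110.1 (an ortholog of BEL5, which promotes tuber formation in potato), Asa2G00237.1 (like the DELLA protein SLR1, which restrains gibberellin responses) and Asa4G02474.1 and Asa0G05638.1 (GA20ox, an enzyme of gibberellin synthesis). The study itself describes GA20ox as breaking down active gibberellins, which differs from the role given here. Asa4G02474.1, with 0 to 2 fragments per group, was not tested. Of the 42 contrasts of the other 7 genes, 0 were called with limma on FPKM, nor were any without the deviating Chalingzipisuan replicate. Of all genes tested, 22.0% to 23.7% were called in the contrasts with Yuanjiangyangsuan. Between Ershuizao and Chalingzipisuan only 0.757% and 0.941% were called with all libraries, so that a count of 0 says little there. Without the deviating replicate, 566 and 630 of 33569 genes were called between these 2 varieties. Of the 42 contrasts, 7 had an unadjusted p under 0.05 with limma on FPKM, and limma voom on fragments called 2.

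Those were Asa2G00237.1 under enlarging growth and Asa6G01159.1 before enlargement. Asa2G00237.1 averaged 1.82 ± 0.480 FPKM in Yuanjiangyangsuan and 0.874 ± 0.382 FPKM in Chalingzipisuan (SD, n = 3 each), a difference of 0.77 with limma on log2(FPKM + 0.5) (limma adjusted p = 0.0469, below 2-fold, and 0.61 with limma adjusted p = 0.143 without the deviating replicate) and 1.08 with voom (limma adjusted p = 0.0329). Asa6G01159.1 averaged 0.0787 ± 0.136 FPKM in Yuanjiangyangsuan and 0.576 ± 0.443 FPKM in Ershuizao (SD, n = 3 each), a difference of -0.83 (limma adjusted p = 0.147) and -3.09 with voom (limma adjusted p = 0.0487). The FT-like gene Asa6G06199.1 averaged 15.6 ± 3.65 FPKM in enlarging Yuanjiangyangsuan, 9.09 ± 5.73 FPKM in enlarging Ershuizao and 9.20 ± 2.50 FPKM in enlarging Chalingzipisuan (SD, n = 3 each). Its log2 difference between enlarging Ershuizao and Chalingzipisuan was -0.13 (limma adjusted p = 1, 95% interval ± 1.44), and -0.040 without that replicate (limma adjusted p = 1), where Asa3G01470.1 and Asa8G01471.1 differed by 2.05 and 1.62. The largest difference of the list in that contrast was -1.28 for the ELF4-like Asa2G00681.1 (limma adjusted p = 0.394, and -1.66 with limma adjusted p = 0.147 without the deviating replicate), which had 8.13 ± 4.60 FPKM in Ershuizao and 20.0 ± 9.49 FPKM in Chalingzipisuan (SD, n = 3 each).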

How the data were processed

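RNA of garlic bulb parts was sequenced in 18 paired-end libraries, 3 individuals per variety and stage. After trimming adapters and discarding reads of low quality, the authors used HISAT2 to align the rest to the reference assembly of garlic, and the deposited values are FPKM per gene and library. The counting program is not given in the sources used here, and no genome or annotation was used here. The values of a gene were whole multiples of 1 step per library, which gave fragments for 99.7% of values above 0 (tolerance 0.003) in 39933 genes, and library totals of 11925012 to 16480041.

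Varieties were compared within stages on log2(FPKM + 0.5) with limma 3.58.1 (R 4.3.3), with 6 group means over 18 libraries, trend and robust estimation, for genes with FPKM of 0.5 or more in at least 3 libraries. The test was checked on simulated fragments. Changes were set there in Yuanjiangyangsuan alone and not in genes as scarce as Asa3G01471.1, which that check does not cover. Ratios of the tandem ids to Asa8G01471.1 were compared with exact permutations within stages, all of them enumerated. Counting intervals and Spearman's rho were computed with scipy 1.17.1. Stage differences, which chose the members, were not tested. Replicate numbers only name libraries: same-numbered libraries had deviations correlated between -0.569 and 0.389, and 9 of 45 pairs exceeded 0.1. Named genes were the 4 members, 8 genes named in the study's text and the 2 genes most correlated with each member. The members and lists were chosen with earlier results of these data known. Alternatives covered pseudocounts, filters, scaling, the replicate block, the fit, limma voom on fragments and each library left out.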

Additional observations from a re-analysis of the deposited data

Results flagged for a closer look

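The stage difference (enlarging minus before enlargement, on log2(FPKM + 0.5)) had opposite signs between varieties in several cases in which every library moved with its variety, that is, the stages did not overlap in either variety. The difference between the varieties was not tested in any of these cases, since the stage contrast chose the genes. The stage difference in Ershuizao minus that in Chalingzipisuan was 5.20 for Asa3G01470.1, 4.16 for Asa3G01471.1, 3.30 for Asa3G01472.1 and 3.50 for Asa8G01471.1. The stage difference in Yuanjiangyangsuan minus that in Ershuizao was -2.34 for Asa3G01472.1 and -2.84 for Asa8G01471.1.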

How the results depend on the processing

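Of the 24 variety contrasts of the CDF genes, 14 were called, where 0.757% to 23.7% of all genes tested were called per contrast. Other settings called 13 (pseudocount 0.1 or 1, limma voom), 14 (quantile normalization, no filter, median-ratio scaling, a minimum FPKM of 1, or a block of replicate numbers), 15 (no trend and robust estimation) and 11 (only the 6 libraries compared), and leaving out each library gave 12 to 15. With only 6 libraries the 3 lost calls were tested and did not pass. The ratio of the tandem ids to Asa8G01471.1 between Yuanjiangyangsuan and Ershuizao, 1.46, had an adjusted p of 0.0938 with permutations within replicate numbers as a block. With 64 permutations this is the smallest adjusted p that 1 pair of 3 can reach alone, so that the value says nothing about stability, and the libraries share only a number. With a pseudocount of 0.1 it was 2.00, with 1 it was 1.23 and with the mean log2 of the tandem ids 0.81 (adjusted p = 0.045), by exact permutation, and the differences of Yuanjiangyangsuan and Ershuizao to Chalingzipisuan then ranged from 0.37 to 0.83 and from -1.18 to -0.45. Over single libraries left out the range was 1.37 to 1.59, against 0.54 to 0.93 between Yuanjiangyangsuan and Chalingzipisuan and -0.92 to -0.53 between Ershuizao and Chalingzipisuan.

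Sign changes were seen only in contrasts that were not called. Between Yuanjiangyangsuan and Chalingzipisuan under enlarging growth, Asa3G01470.1 turned to 0.023 with quantile normalization, and Asa3G01471.1 to 0.013 with pseudocount 0.1, 0.13 with quantile normalization and 0.17 with voom, with a range of -0.32 to 0.30 over libraries left out. Between Yuanjiangyangsuan and Ershuizao before enlargement, Asa3G01470.1 turned to 0.12 with pseudocount 0.1, 0.35 with quantile normalization and 0.068 with voom, with a range of -0.22 to 0.35 over libraries left out. The cause was not tested. Quantile normalization moved the median of all genes between Yuanjiangyangsuan and Ershuizao under enlarging growth to 0.05, against -0.10 as deposited. Stage differences of the tandem ids moved with the pseudocount: for Asa3G01470.1 in Ershuizao the value was 3.89 with 0.1 and 1.84 with 1. The tandem ids had 1 to 17 fragments over 3 libraries in their low groups, while Asa8G01471.1 had 342 or more in each group at a like standard error.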
